A study of Mus musculus with 28 samples.

Results

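The 8 genes F7, Nov, Adgrb1, Stc2, Glyat, Grin1, St8sia5 and Zfp804a were nearly absent from freshly isolated c-Kit+ mouse marrow cells and present in cells that carried MOZ-TIF2, and they were selected on their levels in those cells. They are 8 of 35267 genes in one bulk RNA table and of 35429 in a second, where all 8 are listed. Of the 8 genes, 4 are among the genes that both single-cell tables list (F7, Nov, Stc2 and Glyat), and Adgrb1, Grin1, St8sia5 and Zfp804a were not analysed there. Since their levels in MOZ-TIF2 and fresh cells chose them, those levels are given as a description with no test. Tests of the 8 genes come from the other bulk table, of HOXA9 and EYA1+HOXA9 lines, and tests between MOZ-TIF2 and fresh cells are given for other genes only.

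The study used C57Bl/6 c-Kit+ haematopoietic stem and progenitor cells, which carry the stem cell factor receptor. MOZ-TIF2 is a fusion oncoprotein of acute myeloid leukaemia that joins a histone acetyltransferase to a nuclear receptor coactivator, HOXA9 is a homeobox factor of progenitor self-renewal, and EYA1 is a phosphatase and transcriptional coactivator of the retinal determination network. The first bulk table holds MOZ-TIF2 cells (Ty1-tagged MOZ-TIF2 by retrovirus, sorted on GFP, n = 2), cells with an empty retroviral vector (sorted on GFP and called differentiated by the submitters, n = 2) and fresh c-Kit+ cells (n = 2). The MOZ-TIF2 and empty-vector cells spent 4 days in cytokine medium and the fresh cells did not, so that culture differs along with the vector. The second table holds a HOXA9 line (sorted on GFP) and an EYA1+HOXA9 line (sorted on GFP and dTomato), both taken through 4 rounds of replating in methylcellulose and then kept for 72 h in DMSO, the solvent, or in 5 µM benzarone, which inhibits EYA phosphatase activity (n = 3 for each of these 4 groups). All of these lines carry HOXA9, and none carries MOZ-TIF2. Single-cell RNA (4 samples) and Ty1 chromatin immunoprecipitation (2 samples) come from serially replated Ty1-MOZ-TIF2 cells, of which the single cells were kept in DMSO or in 5 µM benzarone and read on day 1, 3 or 5. The labels do not say whether replicates came from separate cultures or animals, so p-values reflect only how samples spread, and part of that may be technical.

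Coagulation factor VII (F7) is a liver protease that starts clotting together with tissue factor. NOV (also CCN3), a secreted matricellular protein, and stanniocalcin 2 (STC2), a secreted glycoprotein that blocks the protease PAPP-A, act outside the cell. ADGRB1 (also BAI1) is an adhesion receptor of brain and phagocytes that binds phosphatidylserine on dying cells. GRIN1 is the obligatory subunit of the NMDA glutamate receptor, ST8SIA5 is a Golgi sialyltransferase that adds sialic acids to gangliosides, GLYAT conjugates acyl groups to glycine in liver and kidney mitochondria, and ZFP804A is a zinc finger protein known from the nervous system. These genes are best known from liver, brain, matrix and hormone biology rather than from marrow progenitors.

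The 250 bases before the transcription start are shown for the members in the RefSeq promoter table of GRCm38.p6. Some of these stretches hold far more CG dinucleotides than others (CG in capitals, 5′ to 3′ on the gene's strand). The table held F7, Stc2, Glyat, Grin1 and Zfp804a, with 1 start for each. For F7 and Zfp804a the stretch lies inside the gene span given below for the peaks. Their CG counts and motifs are therefore for that listed start alone. The F7 stretch is chr8:13025784-13026033 on the plus strand.
F7: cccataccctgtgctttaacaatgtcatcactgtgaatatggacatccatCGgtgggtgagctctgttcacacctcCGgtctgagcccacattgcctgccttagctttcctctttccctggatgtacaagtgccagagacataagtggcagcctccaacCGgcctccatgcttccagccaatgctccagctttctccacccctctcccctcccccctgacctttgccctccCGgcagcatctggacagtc
The Glyat stretch is chr19:12633058-12633307 on the plus strand.
Glyat: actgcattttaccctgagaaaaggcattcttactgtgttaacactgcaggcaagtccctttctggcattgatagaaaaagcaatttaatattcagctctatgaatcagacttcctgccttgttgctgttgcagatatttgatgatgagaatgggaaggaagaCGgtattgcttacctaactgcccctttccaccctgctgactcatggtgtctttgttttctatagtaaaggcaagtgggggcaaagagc
The Stc2 stretch is chr11:31370062-31370311 on the minus strand.
Stc2: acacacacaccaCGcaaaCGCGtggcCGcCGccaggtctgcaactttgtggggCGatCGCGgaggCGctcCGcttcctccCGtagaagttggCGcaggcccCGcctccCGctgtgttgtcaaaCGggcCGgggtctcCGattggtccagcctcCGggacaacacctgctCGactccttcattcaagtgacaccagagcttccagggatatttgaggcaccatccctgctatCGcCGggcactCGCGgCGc
The Grin1 stretch is chr2:25319188-25319437 on the minus strand.
Grin1: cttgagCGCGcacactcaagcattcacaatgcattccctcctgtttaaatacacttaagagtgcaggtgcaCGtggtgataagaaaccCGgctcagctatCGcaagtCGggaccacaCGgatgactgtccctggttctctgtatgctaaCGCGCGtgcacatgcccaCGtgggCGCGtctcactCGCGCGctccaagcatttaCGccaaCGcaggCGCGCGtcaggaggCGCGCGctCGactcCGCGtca
The Zfp804a stretch is chr2:82053408-82053657 on the plus strand.
Zfp804a: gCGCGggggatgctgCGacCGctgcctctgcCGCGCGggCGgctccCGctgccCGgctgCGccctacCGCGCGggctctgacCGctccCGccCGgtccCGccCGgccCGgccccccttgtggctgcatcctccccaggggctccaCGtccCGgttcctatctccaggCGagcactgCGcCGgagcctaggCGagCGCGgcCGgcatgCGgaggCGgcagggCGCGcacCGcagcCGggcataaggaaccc

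The promoters of the 2 liver genes held fewer CG dinucleotides than the others shown, 4 for F7 and 1 for Glyat. Of 27025 promoters of this length, 61.9% and 91.7% hold as many or more, so the F7 count is a common one. Stc2 held 24, Grin1 27 and Zfp804a 35, counts that 11.7%, 8.16% and 2.82% of promoters reach. A set of 8 short motifs was searched on both strands: GGGCGG (GC box), TTGCNNAA (C/EBP), TGATGNAA (ATF4), TGTGGT (RUNX), TGACAG (MEIS), TGATNNAT (HOX with PBX), CACGTG (E-box) and CAAAGGT (nuclear receptor). Zfp804a held GGGCGG 3 times (present in 32.9% of promoters), Grin1 held CACGTG 2 times (6.05%) and TGTGGT once (14.2%), F7 held CAAAGGT 32 bases before the start (3.52%) and Glyat held TGATNNAT 151 bases before it (7.92%). None of the matches overlapped another. TTGCNNAA (9.55% of promoters), TGATGNAA (3.53%) and TGACAG (15.97%) were in none of the 5 stretches. A match is a string of letters in this window and no measure of binding.

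Counts summed to 34463851 and 33010700 in the MOZ-TIF2 libraries, 23656631 and 34260108 in the differentiated, 12397486 and 15550960 in the fresh and 26340517 to 34606046 in the line libraries. A group without counts for a gene has a floor of 3 counts over the group, which is 0.0423 CPM (counts scaled to a common library size) in MOZ-TIF2, 0.0601 in differentiated and 0.0975 in fresh cells. Such floors and the counting intervals below cover counting error only. Marker lists for other cell types were read in the same libraries. Granulocyte progenitor markers summed to 9377 to 15810 CPM in MOZ-TIF2 and 6745 to 9288 in fresh cells. Hepatocyte markers summed to 1.05 to 1.23 CPM in MOZ-TIF2, 4.42 to 6.63 in fresh and 0.173 to 0.430 in differentiated cells. Of the 16, 12 were at 0 in MOZ-TIF2, Alb, Ttr and Ahsg among them, and Hnf4a had the highest mean (1.03). Neuron markers summed to 9.58 to 12.5 CPM in MOZ-TIF2, 14.25 to 16.3 in fresh and 33.9 to 34.6 in differentiated cells. Of the 16, 7 were at 0 in MOZ-TIF2, Snap25, Syt1 and Map2 among them, and Dlg4 (8.52) and Camk2a (1.45) had the highest means. The libraries labelled differentiated held 58400 to 86860 CPM of mast cell markers, against 334 to 366 in fresh and 39.8 to 54.8 in MOZ-TIF2 cells, so values in that group come with a strong mast cell signature whose part in them was not tested.

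**Figure D1:**
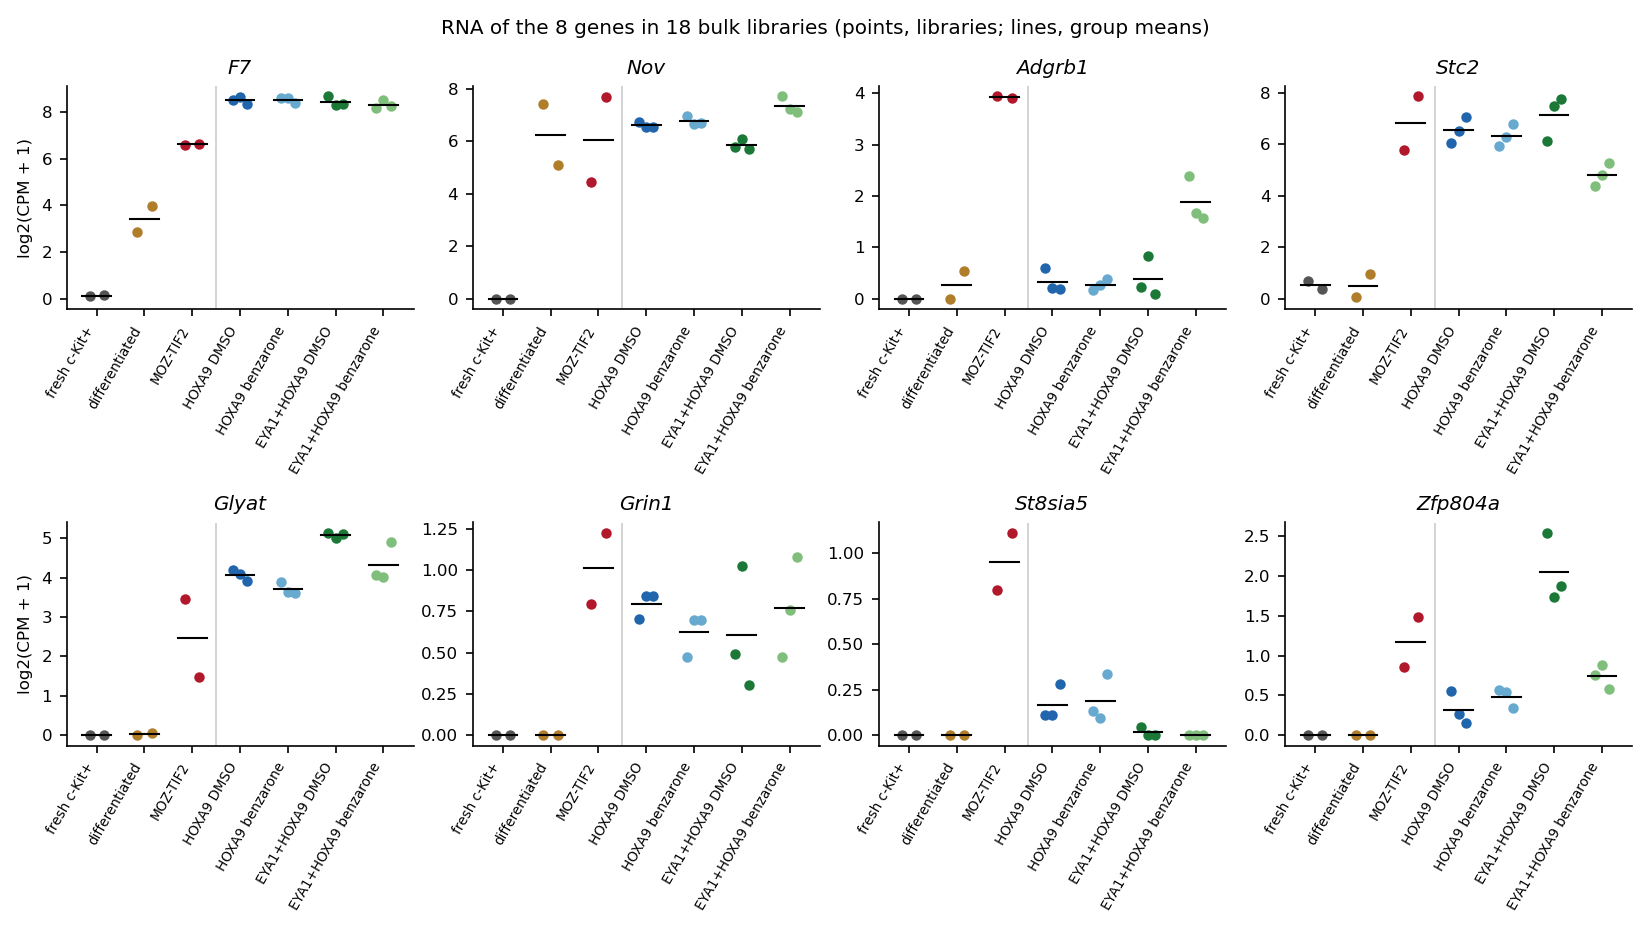
Level of each of the 8 genes in the 18 bulk libraries as log2(CPM + 1), with 1 point per library, groups along the horizontal axis and lines at group means. The vertical line parts the 2 tables, which were scaled separately. Fresh cells lie at or near 0 for all 8 genes, Nov is also high in the differentiated libraries, and F7 is high in all 12 line libraries.

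Of the secreted proteins, F7 RNA stood at 95 and 99.4 CPM in the MOZ-TIF2 libraries, 6.16 and 14.9 in the differentiated and 0.0737 and 0.116 in the fresh ones. The 3 groups did not overlap, and both empty-vector libraries lay between the others. By summed counts, 6894 against 3, F7 in MOZ-TIF2 cells was 996-fold above fresh cells (counting interval 341 to 4831) and by group means 9.25-fold higher than in differentiated cells. Stc2 RNA stood at 53.7 and 234 CPM in MOZ-TIF2, 0.0478 and 0.933 in differentiated and 0.291 and 0.590 in fresh cells. Both MOZ-TIF2 libraries were above all others, though they differed from each other by several fold, and the differentiated and fresh libraries overlapped. The Stc2 means were 327-fold above fresh and 294-fold above differentiated cells.

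Nov RNA stood at 20.6 and 206 CPM in MOZ-TIF2, 171 and 32.8 in differentiated and 0 and 0 in fresh cells. MOZ-TIF2 and empty-vector libraries thus overlapped, with means of 113 ± 131 and 102 ± 97.8 CPM (SD, n = 2 each), a ratio of 1.11. In MOZ-TIF2 cells Nov was at least 1161-fold above fresh cells. For this gene the name ectopic gene of MOZ-TIF2 cells goes too far, since cells with an empty vector held it in the same range after as many days in culture. Leaving out the second MOZ-TIF2 library put the fitted log2 difference between MOZ-TIF2 and differentiated cells at -2.30, and leaving out the first differentiated library put it at 1.78.

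Among the membrane and Golgi proteins, Adgrb1 RNA stood at 14.4 and 14.1 CPM in MOZ-TIF2, 0 and 0.449 in differentiated and 0 and 0 in fresh cells. The 2 MOZ-TIF2 libraries agreed to within 0.204 CPM (SD) of a mean of 14.2, at least 146-fold above fresh and 63.4-fold above differentiated cells. Grin1 RNA stood at 0.737 and 1.34 CPM in MOZ-TIF2, and no differentiated or fresh library held a count of it. The level rests on 73 counts and was at least 10.6-fold above fresh and 17.3-fold above differentiated cells. St8sia5 RNA stood at 0.737 and 1.17 CPM in MOZ-TIF2 and at 0 in the 4 others, from 67 counts, at least 9.75-fold above fresh and 15.8-fold above differentiated cells. At these depths the bounds are set by the fresh floor and say little about how far below it the fresh cells lie.

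Glyat RNA, of the mitochondrial enzyme, stood at 9.96 and 1.81 CPM in MOZ-TIF2, 0 and 0.0346 in differentiated and 0 and 0 in fresh cells. The MOZ-TIF2 libraries were again above all others and far apart from each other. Glyat was at least 60.3-fold above fresh cells, and 427 counts stood against 1 in differentiated cells (300-fold, counting interval 53.6 to 11880). Zfp804a RNA stood at 0.819 and 1.81 CPM in MOZ-TIF2 and at 0 in the other 4 libraries, from 92 counts, at least 13.5-fold above fresh and 21.8-fold above differentiated cells. In bulk RNA a change in the number of cells that hold a transcript and a change per cell cannot be told apart.

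Across the 8 genes, both MOZ-TIF2 libraries were above both fresh libraries for 8 of 8, the pattern that chose them; over all 15224 tested genes 11.3% were called higher in MOZ-TIF2 (edgeR adjusted p under 0.05). Both were above both differentiated libraries for 7 of 8, the exception being Nov, in a comparison where 29.5% of tested genes were called and 13.3% were higher. Of the empty-vector against fresh contrast, where 40.7% of tested genes were called and 21% were higher, F7 and Nov were the 2 members with every differentiated library above every fresh one. The shares over all tested genes are edgeR calls, a different measure from libraries that do not overlap. The share of all genes without overlap was not counted, so these member counts have no like background. The comparisons with fresh and with differentiated cells share the MOZ-TIF2 libraries. The second MOZ-TIF2 library held more of Nov, Stc2, Grin1, St8sia5 and Zfp804a, the first held more of Glyat, and for F7 and Adgrb1 they were nearly equal. The monocyte and macrophage marker sum in the 2 MOZ-TIF2 libraries ranged from 43.3 to 144 CPM, with C1qa, C1qb, C1qc and Ly86, 4 of 10 markers, at 0.

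The line table asks whether these genes are also present in cells transformed without MOZ-TIF2. The 2 tables were scaled separately, so levels set across them are a description. F7 RNA in the line libraries ran from 288 to 412 CPM, above both MOZ-TIF2 values. In HOXA9 cells in DMSO it stood at 368, 402 and 327 CPM and in EYA1+HOXA9 cells in DMSO at 412, 312 and 328. The 2 lines overlapped, with a log2 difference of -0.06 (SE 0.14, edgeR adjusted p = 0.771). Nov and Stc2 were also present in all 12 line libraries, at 50.7 to 210 and 19.7 to 219 CPM, and Glyat, at 11.2 to 34.3 CPM, was above both MOZ-TIF2 libraries in each of them. Adgrb1 was the reverse, at 0.0676 to 0.768 CPM in the 6 DMSO libraries against 14.1 and 14.4 in MOZ-TIF2.

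Of the 7 members that passed the filter on low counts in the line table, 3 differed between EYA1+HOXA9 and HOXA9 cells in DMSO, where 22.9% of 13375 tested genes were called, 12.1% higher and 10.8% lower. Zfp804a stood at 4.84, 2.33 and 2.67 CPM in EYA1+HOXA9 and 0.469, 0.199 and 0.108 in HOXA9 cells. The lines did not overlap, and EYA1+HOXA9 was higher by log2 3.66 (SE 0.50, edgeR adjusted p = 0.00030). Glyat stood at 34.3, 30.9 and 33.3 CPM in EYA1+HOXA9 and 17.2, 16.1 and 14.0 in HOXA9 cells, again without overlap, a rise of log2 1.06 (SE 0.22, edgeR adjusted p = 0.00434). Nov went the other way. It stood at 54.3, 67.3 and 50.7 CPM in EYA1+HOXA9 and 105, 92.2 and 93.0 in HOXA9 cells, a log2 difference of -0.75 (SE 0.17, edgeR adjusted p = 0.00673), and every EYA1+HOXA9 library was below every HOXA9 library.

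The other members did not pass the threshold between the lines. Stc2 stood at 69.1, 178 and 219 CPM in EYA1+HOXA9 and 64.6, 90.2 and 134 in HOXA9 cells in DMSO, with overlap (log2 difference 0.69, SE 0.40, edgeR adjusted p = 0.220). Without the first EYA1+HOXA9 DMSO library Stc2 passed (log2 difference 1.04, edgeR adjusted p = 0.0412). Grin1 was at 0.237 to 1.03 CPM in EYA1+HOXA9 and 0.625 to 0.795 in HOXA9 cells, and Adgrb1 at 0.0676 to 0.768 and 0.144 to 0.508. St8sia5 had 1, 0 and 0 counts in the EYA1+HOXA9 and 2, 2 and 6 in the HOXA9 libraries, too few to pass the filter. Each HOXA9 library was above each EYA1+HOXA9 library, and the exact two-sided permutation test gave p = 0.1, the smallest that 3 against 3 allows. In benzarone St8sia5 had no count in any EYA1+HOXA9 library and 3, 2 and 8 counts in HOXA9 cells.

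Ordered by group mean in the line table, Zfp804a was highest in EYA1+HOXA9 cells in DMSO at 3.28 ± 1.36 CPM (SD, n = 3 for each group here), then in the same line in benzarone at 0.679 ± 0.174, and in HOXA9 cells in benzarone at 0.403 ± 0.122 and in DMSO at 0.259 ± 0.188; of these neighbours the HOXA9 groups overlapped. Stc2 fell in order from EYA1+HOXA9 in DMSO (155 ± 77.4) over HOXA9 in DMSO (96.2 ± 34.9) and in benzarone (82.5 ± 25.7), which all overlapped, to EYA1+HOXA9 in benzarone (28.0 ± 9.09), which lay apart. Nov had the opposite order, from EYA1+HOXA9 in benzarone (167 ± 38.5) over HOXA9 in benzarone (109 ± 12.9) and in DMSO (96.8 ± 7.35), which overlapped, to EYA1+HOXA9 in DMSO (57.5 ± 8.75). F7 held means of 320 to 372 CPM in the 4 groups, all overlapping.

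**Figure D2:**
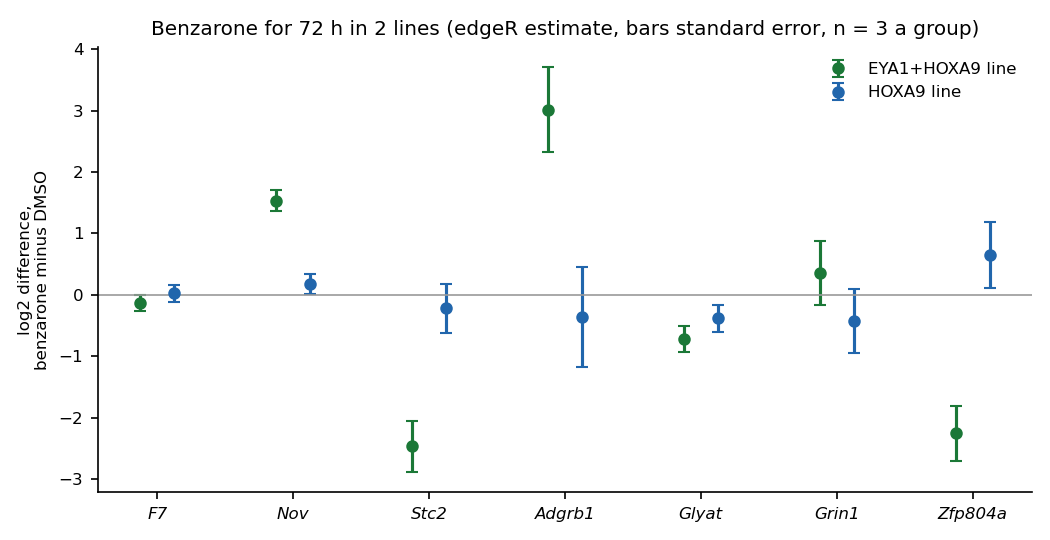
Log2 difference between 5 µM benzarone and DMSO for the 7 tested members in each line (edgeR estimate, bars 1 standard error, n = 3 libraries a group). In EYA1+HOXA9 cells Stc2, Glyat and Zfp804a lie below 0 and Nov and Adgrb1 above it, and in HOXA9 cells no difference passed the threshold.

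Benzarone moved 5 of the 7 tested members in EYA1+HOXA9 cells, where 29.4% of all tested genes were called, 17% higher and 12.4% lower. Stc2 stood at 69.1, 178 and 219 CPM in DMSO and 19.7, 26.7 and 37.7 in benzarone, with no overlap, a fall of log2 -2.47 (SE 0.42, edgeR adjusted p = 0.00117). Zfp804a went from 4.84, 2.33 and 2.67 to 0.688, 0.848 and 0.501 CPM, also without overlap (log2 -2.26, SE 0.45, edgeR adjusted p = 0.00286). Glyat fell from 34.3, 30.9 and 33.3 to 15.8, 15.1 and 28.9 CPM, with benzarone replicate 3 close to the DMSO ones (log2 -0.72, SE 0.21, edgeR adjusted p = 0.0243). That call was lost without any one of 4 libraries, with adjusted p of up to 0.101 when the second benzarone library was left out, 0.0851 without the first, and 0.0561 and 0.0709 without DMSO replicates 1 and 3.

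The other 2 rose. Nov stood at 54.3, 67.3 and 50.7 CPM in DMSO and 210, 151 and 138 in benzarone, without overlap (log2 1.54, SE 0.17, edgeR adjusted p = 0.000116). Adgrb1 stood at 0.168, 0.768 and 0.0676 CPM in DMSO and 4.22, 2.20 and 1.97 in benzarone, 33 counts in all against 266 (log2 3.02, SE 0.69, edgeR adjusted p = 0.00647). All benzarone libraries were above all DMSO libraries, and still below the MOZ-TIF2 values of this receptor. F7 (log2 -0.13, SE 0.14, edgeR adjusted p = 0.506) and Grin1 (log2 0.36, SE 0.52, edgeR adjusted p = 0.646) did not pass. The monocyte and macrophage marker sum stood at 137 to 174 CPM in DMSO and 260 to 444 in benzarone in this line, with none of 10 markers at 0. The stromal list, of which only Thy1 was above 1 CPM in benzarone, summed to 55.2 to 116 CPM in DMSO and 363 to 477 in benzarone. Granulocyte progenitor markers stood at 8291 to 8581 and 5630 to 7857 CPM. The part of these shifts in the members' changes was not tested.

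In HOXA9 cells, which carry no EYA1 transgene, no member passed and no gene of the table did (0 of 13375, edgeR, 0%), with 232 genes at an unadjusted p under 0.05, 14 called by DESeq2 and 6 with the replicate number as a block. None of the members was among those calls. Stc2 stood at 64.6, 90.2 and 134 CPM in DMSO and 59.5, 77.7 and 110 in benzarone (log2 -0.22, SE 0.40). Nov stood at 105, 92.2 and 93.0 in DMSO and 124, 101 and 102 in benzarone (log2 0.17, SE 0.16). The treatments overlapped for both genes. Between same-numbered libraries, which deviated together in this line, Stc2 was lower and Nov higher in benzarone in 3 of 3 pairs, the directions seen in EYA1+HOXA9 cells, and with the replicate number as a block neither passed (log2 -0.20, SE 0.17, and 0.17, SE 0.14, edgeR adjusted p = 1 for both). Glyat stood at 17.2, 16.1 and 14.0 CPM in DMSO and 13.7, 11.3 and 11.2 in benzarone, every benzarone library below every DMSO library but short of the threshold (log2 -0.38, SE 0.22, edgeR adjusted p = 1). Zfp804a was higher in benzarone in 3 of 3 same-numbered pairs, opposite to its direction in EYA1+HOXA9 cells, and was not called (log2 0.645, SE 0.53). The share of all genes with 3 of 3 pairs in the same direction was not counted. The monocyte and macrophage marker sum was 122 to 166 CPM in DMSO and 141 to 196 in benzarone.

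The test of the difference between the lines, the interaction of line and benzarone, called 3 members, where 7.54% of tested genes were called, 4.71% higher and 2.83% lower. Nov rose more in EYA1+HOXA9 than in HOXA9 cells (log2 1.36, SE 0.23, edgeR adjusted p = 0.00673), and this held without any single library (adjusted p 0.00382 to 0.0243). Stc2 fell more in EYA1+HOXA9 (log2 -2.25, SE 0.57, edgeR adjusted p = 0.0333), a call that was kept without EYA1+HOXA9 benzarone replicate 3, EYA1+HOXA9 DMSO replicate 1, HOXA9 benzarone replicate 1 or HOXA9 DMSO replicate 3 and lost in the other 8 of the 12 fits that leave out a library (adjusted p 0.00978 to 0.0966). Zfp804a fell in EYA1+HOXA9 cells, while its estimate in HOXA9 cells went up and was not called (log2 0.645, SE 0.53). Its interaction passed (log2 -2.91, SE 0.69, edgeR adjusted p = 0.0272). That call was lost in 5 of the 12 fits that leave out a library (edgeR adjusted p 0.0205 to 0.0683 over the 12). These were the fits without EYA1+HOXA9 benzarone replicate 1, EYA1+HOXA9 DMSO replicate 3, HOXA9 benzarone replicate 1 or 2 or HOXA9 DMSO replicate 2. Adgrb1 had the widest difference and did not pass (log2 3.38, SE 1.07, edgeR adjusted p = 0.0751), while DESeq2 gave an adjusted p of 0.0281. For Glyat (log2 -0.34, edgeR adjusted p = 0.566) the fall in one line and the lack of a call in the other are no shown difference between the lines.

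Single-cell RNA came from Ty1-MOZ-TIF2 cells in DMSO on day 1 (883 cells, median 42565 unique molecular identifiers, UMIs), benzarone on day 1 (826 cells, 44761.5) and day 3 (829 cells, 44743), and 1 day 5 sample that holds DMSO (1662 cells, 24575.5) and benzarone cells (1496 cells, 19763). No condition has more than 1 sample, and both day 5 conditions share 1, so differences carry no test, and intervals (95%, exact) cover counting error only. The days 1 and 3 table and the day 5 table list different genes and are compared only within themselves. Libraries of the first table shared 0 to 2 cell barcodes pairwise, and the 2 tables shared 9. No labelled cell type known to lack these genes was sequenced, so the share that free RNA alone would give was not measured.

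**Figure D3:**
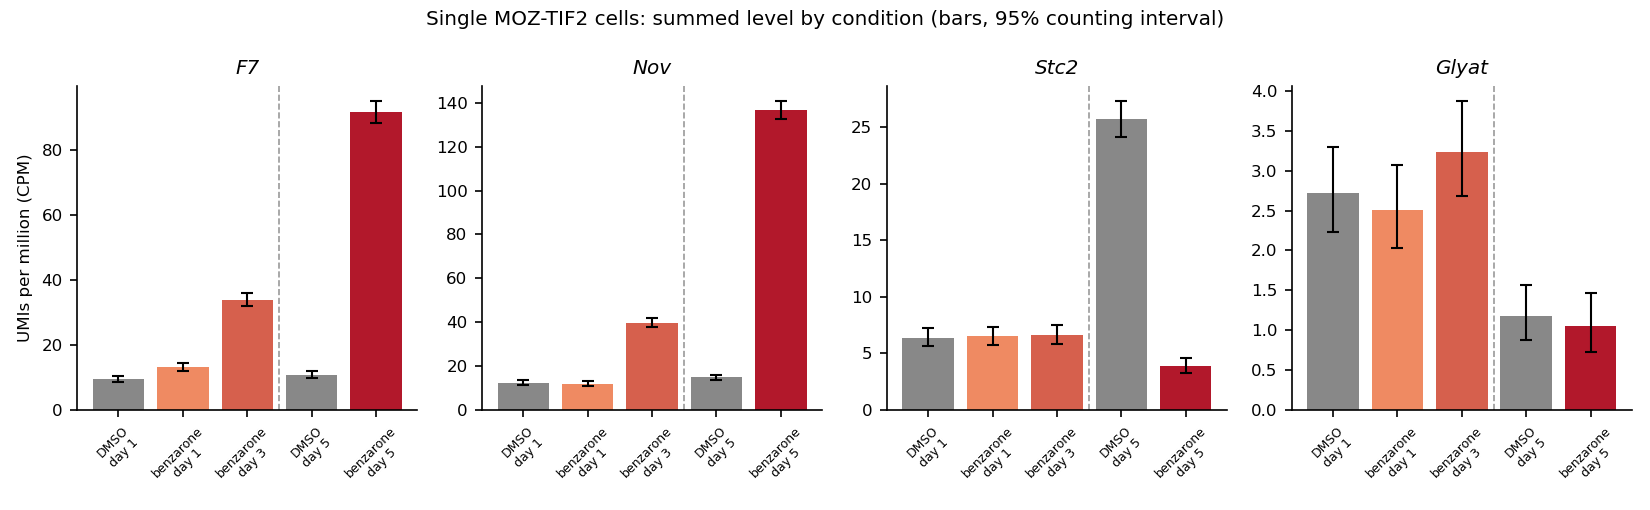
Summed level of F7, Nov, Stc2 and Glyat in each single-cell condition (bars, CPM over listed genes, with 95% exact Poisson intervals). The dashed line parts the 2 tables, both day 5 conditions come from 1 sample, and the scale differs by gene. F7 and Nov are higher in benzarone than in DMSO on day 5, and higher in benzarone on day 3 than on day 1. Day 3 has no DMSO condition. Stc2 is lower in benzarone on day 5, and the Glyat intervals of both treatments overlap on days 1 and 5.

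F7 stood at 9.34 CPM (8.40 to 10.4) in DMSO and 13.1 (11.98 to 14.3) in benzarone on day 1 and at 33.9 (32.1 to 35.9) in benzarone on day 3. On day 5 it stood at 10.7 CPM (9.77 to 11.8) in DMSO and 91.7 (88.5 to 95.1) in benzarone, a ratio of 8.54 (7.73 to 9.45). F7 in benzarone was thus 1.40-fold above DMSO on day 1 (1.22 to 1.61) and several fold above it on day 5. Nov stood at 12.1 CPM (11.0 to 13.3) in DMSO and 11.7 (10.7 to 12.9) in benzarone on day 1, and at 39.7 (37.8 to 41.8) in benzarone on day 3. On day 5 it stood at 14.7 CPM (13.5 to 15.9) in DMSO and 137 (133 to 141) in benzarone, a ratio of 9.32 (8.56 to 10.2).

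Stc2 stood at 6.36, 6.47 and 6.62 CPM in the 3 conditions of days 1 and 3, with overlapping intervals. On day 5 it stood at 25.7 CPM (24.2 to 27.3) in DMSO and 3.86 (3.22 to 4.60) in benzarone, 6.65-fold lower (5.52 to 8.07). Glyat stood at 2.73, 2.51 and 3.24 CPM on days 1 and 3, and at 1.18 (0.873 to 1.56) in DMSO and 1.05 (0.728 to 1.47) in benzarone on day 5, a ratio of 0.890 whose interval, 0.557 to 1.41, covers both directions. So 2 of the 4 members were at least 4-fold higher and 1 at least 4-fold lower in benzarone on day 5. Among 11136 listed genes with at least 50 UMIs on that day, 6.86% were at least 4-fold higher and 2.16% at least 4-fold lower. On day 1 no member was 4-fold apart, as were 0.0741% of 9444 genes in the higher and 0.0106% in the lower direction.

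F7, not called with benzarone in either line, was thus several fold higher in benzarone in the MOZ-TIF2 cells of day 5, while Nov was higher and Stc2 lower in benzarone in both EYA1+HOXA9 cells and these. The bulk and single-cell cells differ in oncogene, days in benzarone and RNA assay, and the contrast between them was not tested. F10, coagulation factor X, stood beside F7 at 70.6 CPM in DMSO and 217 in benzarone on day 5 (ratio 3.08, 2.95 to 3.22).

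**Figure D4:**
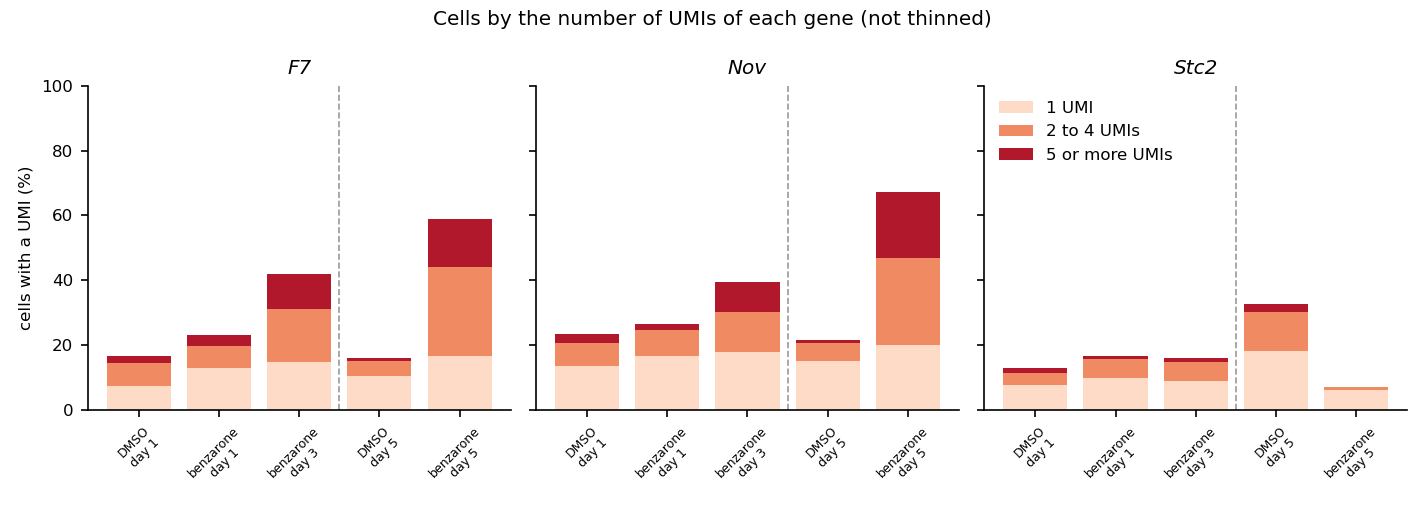
Percent of cells with 1, with 2 to 4 and with 5 or more UMIs of F7, Nov and Stc2 in each condition, stacked and not thinned, with a dashed line between the 2 tables. On day 5 F7 and Nov UMIs are in 59.0% and 67.1% of benzarone cells against 15.8% and 21.6% of DMSO cells, and Stc2 UMIs in 6.89% against 32.7%.

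Shares of cells followed the levels for the first 3 genes. F7 UMIs were found in 15.8% of day 5 DMSO cells and 59.0% of day 5 benzarone cells, Nov UMIs in 21.6% and 67.1%, and Stc2 UMIs in 32.7% and 6.89%. After thinning each cell to 10000 UMIs, which left out 42 DMSO and 126 benzarone cells below that depth, these were 8.03% and 44.8% for F7, 11.2% and 52.7% for Nov, and 19.6% and 2.70% for Stc2. On days 1 and 3, F7 was found in 16.5% of DMSO cells and in 23.0% and 41.7% of benzarone cells, and Nov in 23.4%, 26.4% and 39.6%. Glyat was in 9.74% to 10.9% of cells on days 1 and 3 and in 2.65% and 1.94% on day 5, and no cell held 5 or more UMIs of it.

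The transcripts were spread unevenly over cells. On day 1 in DMSO the top 10% of cells by F7 held 84.2% of its UMIs, and on day 5 in benzarone they held 40.9%, where 14.8% of cells had 5 or more UMIs of it. Such a share depends on the mean count, which was 0.408 and 1.98 F7 UMIs per cell in these conditions. The 2 shares therefore do not compare unevenness. Nov was the most uneven at high level, with up to 98 UMIs in a cell on day 3 and 145 on day 5 in benzarone. In day 5 benzarone cells both F7 and Nov were found in 672 cells. Nov was in 76.1% of the cells with an F7 UMI and 54.2% of those without, whose median depths were 22100 and 17078 UMIs, and in day 5 DMSO cells in 37.3% and 18.7% (27219 and 24264 UMIs). Stc2 was found in 7.93% of day 5 benzarone cells with F7 and 5.38% of those without. The depth gaps go the same way as these shares, and their part was not tested.

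The same conditions differed in lineage markers. The monocyte and macrophage list, of which 8 of 10 genes are listed for days 1 and 3 and 9 for day 5, summed to 52.8 CPM in DMSO and 61.2 in benzarone on day 1, 166 in benzarone on day 3, and 71.4 in DMSO and 873 in benzarone on day 5. Granulocyte progenitor markers stood at 10680 CPM in DMSO and 1666 in benzarone on day 5. Cells without a UMI of the monocyte and macrophage list, a subset chosen after seeing the data, were therefore read separately; they were shallower, with median depths on day 5 of 17538.5 UMIs against 19925 in benzarone and 22262.5 against 25490 in DMSO. In the 90 such benzarone cells of day 5, F7 stood at 14.0 CPM (8.79 to 21.2) and Nov at 14.7, against 6.96 and 9.25 in 454 DMSO cells, ratios of 2.01 and 1.59. In the 1406 benzarone cells with a marker UMI, F7 stood at 95.7 and Nov at 143 CPM, against 11.96 and 16.4 in 1208 such DMSO cells. Stc2 was 6.37 CPM in the benzarone and 26.2 in the DMSO cells without a marker UMI, still 4.10-fold lower, and 3.74 and 25.5 CPM in those with one. F7 and Nov were thus several fold higher in benzarone among cells with a marker UMI. Without one the ratios were smaller and rest on 22 and 23 UMIs in benzarone. There the counting intervals of benzarone and DMSO overlapped for Nov (9.29 to 22.0 and 7.46 to 11.3 CPM). For F7 they overlapped narrowly (8.786 to 21.23 and 5.425 to 8.793 CPM). The lower level of Stc2 was present among cells with and without a marker UMI. Whether a cell shows such a UMI depends on its depth and marker level, so the split does not define cell types. Marker sums also differed between treatments, so the cells with a marker UMI in DMSO and in benzarone are not matched. The part of lineage in these differences was not tested. On day 3, F7 stood at 5.19 CPM and Nov at 8.95 in 139 cells without a marker UMI, against 39.0 and 45.2 in cells with one.

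Other genes of the members' pathways were read from lists. Of 26 other coagulation genes 13 passed the filter, and of these 1 was higher in MOZ-TIF2 cells and 3 were lower, against fresh cells (median log2 -0.10, 0.00 over all tested genes), where 11.3% of all tested genes were called higher and 12.4% lower. F10, the next protease after F7 in the cascade, rose by log2 4.30 (SE 0.46, edgeR adjusted p = 0.00357; 0.0589 and 0.0545 without the first or the second fresh library). Pros1, the anticoagulant protein S, fell by 4.72 on the log2 scale (SE 0.43, edgeR adjusted p = 0.00219). Vwf, von Willebrand factor, and Thbd, thrombomodulin, fell by 3.16 and 2.77, though both lost their calls without either fresh library (edgeR adjusted p up to 0.0902 and 0.102). In EYA1+HOXA9 against HOXA9 cells 1 of 13 was higher and 5 were lower (12.1% and 10.8% of all tested genes). Thbd rose by log2 3.47 (edgeR adjusted p = 1.03e-05), and Procr, the endothelial protein C receptor, fell by 4.36 on the log2 scale (edgeR adjusted p = 0.000126). Benzarone moved 5 of the 13 up and 1 down in EYA1+HOXA9 cells (median log2 0.73, 0.01 over all genes; 17% of all tested genes were called higher and 12.4% lower), with Procr up by 2.46 and Thbd down by 1.52, and F10 did not pass (log2 -0.16, edgeR adjusted p = 0.325).

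Among the partners of STC2, Igfbp4, an insulin-like growth factor binding protein that PAPP-A cleaves, passed the filter in the lines. It was higher in EYA1+HOXA9 than in HOXA9 cells (log2 1.36, edgeR adjusted p = 7.1e-05) and fell with benzarone in EYA1+HOXA9 cells (log2 -1.04, edgeR adjusted p = 0.000526). In the first table Igfbp4 (log2 0.46, edgeR adjusted p = 0.220) and Stc1 (log2 3.25, edgeR adjusted p = 0.0671) did not pass between MOZ-TIF2 and fresh cells. Of the 5 other CCN genes 2 passed the filter in the first table and both were lower in MOZ-TIF2, Ctgf and Wisp2, from 46 and 80 counts over the fresh libraries. The call of Ctgf was lost without any single library of these groups and that of Wisp2 without any but the second MOZ-TIF2 library (edgeR adjusted p 0.320 and 0.165 without the first fresh library). None of the CCN genes but Nov passed the filter in the lines.

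Of 15 other ionotropic glutamate receptor genes 4 passed the filter in the first table, and the test against fresh cells called none of these higher. Gria3, an AMPA receptor subunit, had the higher mean in MOZ-TIF2, 31.8 against 14.9 CPM, and did not pass (log2 1.09, SE 0.39, edgeR adjusted p = 0.0904). Grin2d, a partner subunit of GRIN1, was lower (log2 -3.69, edgeR adjusted p = 0.0335, up to 0.169 without a fresh library). In the lines Gria3 was lower in EYA1+HOXA9 than in HOXA9 cells in DMSO (log2 -2.47) and rose with benzarone in EYA1+HOXA9 cells (log2 2.27). Its interaction passed (log2 2.29, edgeR adjusted p = 0.0127) and held without any single library (adjusted p up to 0.0443). Of 14 other ganglioside synthesis genes 12 passed in the first table, with 2 higher and 5 lower against fresh cells (median log2 -1.04, 0.00 over all genes; 11.3% and 12.4% of all tested genes were called so). St3gal5, which makes GM3, the ganglioside from which the larger ones are built, fell by 5.83 on the log2 scale and kept its call without any single library (adjusted p 0.00247 to 0.0158). B4galt6, a lactosylceramide synthase, rose by log2 2.70, a call lost without the first fresh library (adjusted p 0.0665). Benzarone moved 4 of 9 tested genes of this list up and none down in EYA1+HOXA9 cells (17% and 12.4% of all tested genes).

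Of the 6 partners and relatives of ADGRB1, 4 passed the filter in the first table and none was called between MOZ-TIF2 and fresh cells. In EYA1+HOXA9 cells Rac1, the small GTPase at the end of this engulfment pathway, rose with benzarone (log2 0.32, edgeR adjusted p = 0.0303), a call lost with no filter on low counts (adjusted p 0.106) and without benzarone replicate 1 or 2 or DMSO replicate 2 or 3 (up to 0.135). None of the 8 other glycine and acyl conjugation genes passed the filter in either table. Of the 2 other genes of the ZNF804 family 1 passed, and it was not called between MOZ-TIF2 and fresh cells.

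Around the members, 36 other genes have an end within 50 kb in the RefSeq table, and 13 of them passed the filter in the first table, of which 4 were higher and none lower against fresh cells (11.3% and 12.4% of all tested genes). These were F10 and Mcf2l beside F7, Fam111a near Glyat and Uap1l1 near Grin1. F10 lies 1499 bp from F7 and stood at 230 and 504 CPM in MOZ-TIF2, 14.9 and 22.1 in differentiated and 17.7 and 19.6 in fresh cells. Unlike F7 it was therefore present in fresh cells, and differentiated and fresh libraries overlapped. Calls for Mcf2l and Fam111a were lost without any single library of these groups, and that for Uap1l1 without either fresh library (edgeR adjusted p 0.288, 0.323 and 0.109 at the highest). In the lines F10 was lower in EYA1+HOXA9 than in HOXA9 cells in DMSO (log2 -0.98, SE 0.12, edgeR adjusted p = 0.000107), where F7 was not called.

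Genes overlapping a member can share its reads, and how strand was used in counting is not given in the sources used here. Lrrc26 overlaps Grin1, Gm7276 overlaps St8sia5 and Gm13677 overlaps Zfp804a, and these 3 had 0 counts in all 18 libraries. Grin1os, an antisense RNA, also overlaps Grin1, so the low Grin1 counts are uncertain to that extent.

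Ty1 chromatin immunoprecipitation asks where tagged MOZ-TIF2 was bound. The 2 deposited lists hold 3676 and 4564 peaks, of which 3309 of the first overlap the second by at least 1 bp. The label of the second sample carries the catalogue number given elsewhere for the acetyl-histone antibody, so which antibody it used is unsure. A shared peak lay within 50 kb of 1 of the 8 members, Grin1, and of 44.7% of 14769 tested genes with a RefSeq position. Within 5 kb and within 1 kb it was 0 of 8, against 26.2% and 24.0% of tested genes. None of the 5 promoter stretches shown above therefore lay under a peak.

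**Figure D5:**
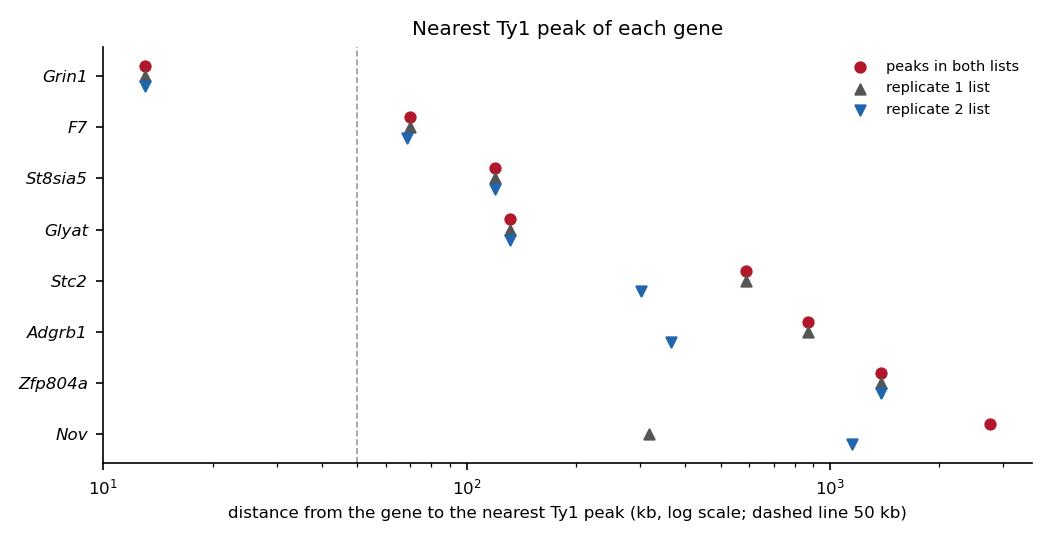
Distance from each member to its nearest Ty1 peak in the first list, the second list and the peaks in both (kb on a log axis, 1 marker per list, dashed line at 50 kb). Only Grin1 lies inside the window.

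The shared peak nearest to Grin1 (chr2:25291177-25319187) was 13014 bp away at chr2:25332201-25333001, over the genes AA543186 and Man1b1, and a second, 35476 bp away in the first list, lay over Ndor1 and Tmem203. Both lie over other genes of a gene-dense stretch in which 14 genes have an end within 50 kb of Grin1. For F7 (chr8:13025506-13035809) the nearest shared peak was 70.0 kb away, for St8sia5 120 kb and for Glyat (chr19:12633308-12651737) 132 kb. The peaks for Stc2 (chr11:31359441-31370061, 587 kb), Adgrb1 (chr15:74516196-74589465, 871 kb), Zfp804a (chr2:82050129-82259879, 1385 kb) and Nov (chr15:54745910-54753762, 2754 kb) were farther. In the single lists Nov had a peak at 318 kb in the first, Adgrb1 at 366 kb and Stc2 at 301 kb in the second. Peak coordinates are GRCm38 and may be off by 1 bp, since the lists do not say from which base starts are counted. The cells of this assay were replated and those of the bulk table were kept 4 days in cytokine medium, so binding and RNA come from different cultures.

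The members are part of a small class. Only 15 genes had a fresh mean under 0.5 CPM and at least 10 CPM in both MOZ-TIF2 libraries, of which 4 are members (Stc2, Nov, F7 and Adgrb1), while Glyat, Grin1, St8sia5 and Zfp804a stood under 10 CPM. Among the highest were Stc2 at a mean of 144 CPM, Vcan at 122 and Nov at 113. Vcan encodes the matrix proteoglycan versican. Nearest to the class limits, Stc2 stood at 0.440 CPM in fresh cells and Ttc12 at 11.0 and 12.3 in MOZ-TIF2. Of the 15, 9 were at 10 CPM or more in all 12 line libraries, F7, Nov and Stc2 among them. The share of all genes at that level there was not counted. A shared Ty1 peak lay within 50 kb of 5 of the 15 (33.3%), against 44.7% of tested genes.

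For each member the genes with the most similar pattern were found by the root mean square difference of log2(CPM + 1), centred on the gene's mean, over the 18 bulk libraries and 15523 genes. For F7 they included Mst1 (1.06) and Vcan (1.13), and for Nov they were Aldoc (0.840), Gm2223 (0.953) and Vcan (1.00). Mst1 encodes a hepatocyte growth factor-like protein of liver. For Stc2 they were Thbs1 (0.831), Tmc7 (0.955) and Aff2 (0.972), for Adgrb1 Myh14 (0.498), Cyb561 (0.499) and Tln2 (0.604), and for Glyat Pawr (0.439), St14 (0.575) and Glra3 (0.583). The distances of Grin1, St8sia5 and Zfp804a to their nearest genes (Gm6560 at 0.197, Gm20789 at 0.0859 and Gm6185 at 0.295) are small because these genes hardly vary on this scale. Points of this measure share libraries, and the tables they come from were scaled separately.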

How the data were processed

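Bulk RNA values are gene-level estimated counts, deposited without normalization (Salmon 0.13.0 appears in the submitters' processing notes). They were rounded, filtered with filterByExpr (15224 and 13375 genes kept), scaled by TMM and tested in R 4.3.3 with edgeR 4.0.16 (quasi-likelihood F test with every group of a table in 1 two-sided fit, Benjamini-Hochberg over all genes, threshold 0.05), also with DESeq2 1.42.0. The edgeR script was tested on simulated data. Log2 differences are edgeR's fitted values, and the printed levels are CPM. Single-cell values are the deposited UMI counts. The submitters' processing notes name Cell Ranger 3.0.0, and the deposited cell table gives the treatment of each cell. They list 9448 genes for days 1 and 3 and 11662 for day 5, and CPM is over these. All cells were kept, since none had under 1000 UMIs. Doublets were not called, and cells were not clustered. The peak lists are intervals without scores, and Bowtie2 is named in the submitters' processing notes. Genes were placed with the given RefSeq table of GRCm38.p6 (14769 of 15224 tested genes).

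The members, lists and tests were chosen with earlier results of these data known. Named genes are the members, the called genes of each list with the smallest p, neighbours within 50 kb, the 3 nearest genes per member and the highest of the class, of which some are not reported here. Genes whose calls rest on a library are named with it. In the HOXA9 line same-numbered libraries deviated together (correlations 0.279, 0.300 and 0.550), so the numbers pair these samples by the data alone. Samples for acetylated histone H3 and input were not analysed here.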

Additional observations from a re-analysis of the deposited data

Results flagged for a closer look

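The effect of benzarone differed between the EYA1+HOXA9 and HOXA9 lines for 3 members, by the interaction test over the 12 line libraries. For Stc2 the difference was log2 -2.25 (libraries at 19.7 to 37.7 CPM in benzarone against 69.1 to 219 in DMSO in EYA1+HOXA9, and 59.5 to 110 against 64.6 to 134 in HOXA9 cells). For Nov it was log2 1.36 (138 to 210 against 50.7 to 67.3 CPM, and 101 to 124 against 92.2 to 105). For Zfp804a it was log2 -2.91 (0.501 to 0.848 against 2.33 to 4.84 CPM, and 0.263 to 0.487 against 0.108 to 0.469). Within EYA1+HOXA9 cells the treatments did not overlap for any of the 3 genes, so every pairing of libraries gives the same direction and adds no support. In HOXA9 cells, by replicate number, the benzarone library was lower in 3 of 3 pairs for Stc2, higher in 3 of 3 for Nov, and higher in 3 of 3 for Zfp804a. For Zfp804a this is opposite to EYA1+HOXA9 cells. The share of all genes with 3 of 3 pairs in the same direction was not counted.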

How the results depend on the processing

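Leaving out 1 library moved the number of genes called between 374 and 3181 for MOZ-TIF2 against fresh (3602 in all libraries; 2094 with the replicate block), 2847 and 4278 for MOZ-TIF2 against differentiated (4486), 1259 and 4891 for differentiated against fresh (6198), 1735 and 3486 for EYA1+HOXA9 against HOXA9 in DMSO (3061), 2353 and 3923 for benzarone in EYA1+HOXA9 (3933), 0 and 1 for benzarone in HOXA9 (0; 6 with the replicate block, 14 with DESeq2) and 408 and 1182 for the interaction (1009; 1702 with DESeq2). Outside the HOXA9 line the numbers pair no samples (c-Kit correlations -0.076 to -0.008), and with the block Stc2 passed between the lines in DMSO (log2 0.63, adjusted p 0.0254). Differences under the threshold turned in sign without a single library: for F7 between the lines (-0.19 to 0.02; 0.018 and 0.013 when turned) and with benzarone in HOXA9 cells (-0.05 to 0.10; -0.009, -0.014 and -0.049), for Adgrb1 between the lines (-1.16 to 1.16) and with benzarone in HOXA9 cells (-0.70 to 0.45), for Grin1 with benzarone in EYA1+HOXA9 (-0.062 to 1.168) and for Stc2 with benzarone in HOXA9 (-0.487 to 0.094). Without the second EYA1+HOXA9 DMSO library the Adgrb1 interaction passed (4.89, adjusted p 0.0104), and without the third EYA1+HOXA9 benzarone library that of Glyat did (-0.70, adjusted p 0.0457). Members with a shared peak numbered 0 within 5 kb and 0 within 1 kb. In cells without a monocyte or macrophage marker UMI, a setting added after seeing the data, 1 of the 4 members was 4-fold apart on day 5. Grin1, St8sia5 and Zfp804a rest on 67 to 92 counts in MOZ-TIF2 cells, which limits their bounds. The cause of these changes was not tested.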
